A study of Homo sapiens with 8 samples.

Results

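The joint effect of TAK-981 and venetoclax was measured in KG1a cells, a human line established from acute myeloid leukemia that has an immature, CD34-positive phenotype. The comparison rests on 4 of the 8 RNA sequencing libraries of the series, chosen by their treatment labels. Both libraries of the combination group came from KG1a cells given 5 µM TAK-981 and 1 µM venetoclax for 48 h, and both libraries of the vehicle group from KG1a cells given DMSO for 48 h. The other 4 libraries, 2 from cells given 5 µM TAK-981 alone and 2 from cells given 1 µM venetoclax alone for the same time, share the fit and are used to show where the joint effect differs from that of each drug. No genotype differs between the groups, all groups are the same line, and whether the 2 libraries of a group came from 2 cultures is not stated. The p-values therefore weigh each difference against the spread between libraries, and that spread may be technical.

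TAK-981 blocks the SUMO-activating enzyme. SUMO is a small modifier joined to lysines in target proteins, where it often lowers the activity of transcription factors and keeps chromatin silent. Venetoclax occupies the groove of BCL2 that holds pro-apoptotic BH3-only proteins, so that these are freed to activate BAX and BAK1 at the mitochondrion. In leukemia cells venetoclax is also known to affect mitochondrial respiration, and loss of SUMO conjugation is known to raise interferon signalling. Acute myeloid leukemia cells that depend on other members of the BCL2 family tolerate venetoclax, which is a reason to pair it with another agent.

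The table lists 25168 genes, of which 12843 had enough counts to be tested. Total counts were 20636292 and 13204588 in the combination libraries and 22777546 and 23819348 in the vehicle libraries. Over 9858 genes of at least 5 CPM (counts scaled to a fixed library total), replicates differed by a median of 0.101 log2 units in the combination group and 0.0968 in the vehicle group, against 0.088 with TAK-981 and 0.262 with venetoclax. All 8 libraries enter the estimate of the spread, the wide venetoclax pair included. The labelled cell type was checked on its markers. CD34 stood at 1214 and 1256 CPM with the combination and 982 and 953 CPM in vehicle. Markers of other lineages were read as whole lists. No count in these 4 libraries had 8 of 15 erythroid genes, HBB and HBA1 among them, 5 of 9 epithelial genes with EPCAM and KRT18, 3 of 10 stromal genes with COL1A2 and DCN, and 3 of 10 B cell genes with MS4A1 and EBF1. It was 1 of 13 for T and NK cells (CD4), 1 of 13 for mast cells (FCER1A), 1 of 17 for megakaryocytes and platelets (PF4) and 1 of 11 for endothelium (CDH5), so most listed genes of these 4 lineages had counts. Their summed levels with the combination and in vehicle were 70 and 84 against 109 and 119 CPM for T and NK cells, 474 and 483 against 238 and 263 CPM for mast cells, 1046 and 1115 against 907 and 865 CPM for megakaryocytes and 278 and 296 against 273 and 277 CPM for endothelium. The sums were 1156 and 1024 against 997 and 789 CPM for erythroid, 12.03 and 15.1 against 1.69 and 2.18 CPM for stromal, 9.28 and 10.3 against 14.2 and 17.8 CPM for B cell and 0.594 and 1.46 against 0.478 and 0.427 CPM for epithelial genes. Their part in the results was not tested. In bulk RNA, fewer cells of a kind and less RNA per cell cannot be told apart.

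The combination changed a large share of the genes in both directions. Of the 12843 genes, 3582 (27.9%) differed from vehicle at an adjusted p under 0.05, with 1647 (12.8%) higher and 1935 (15.1%) lower. More rises than falls were large. Past 2-fold there were 662 higher genes (5.15%) and 394 lower genes (3.07%), past 4-fold 280 and 73, past 8-fold 148 and 22, and past 16-fold 97 and 12. The excess of rises lay in genes low in vehicle. At up to 1 CPM in vehicle 326 genes were higher past 2-fold and 21 lower. Of these 1336 tested genes 817 were below the level of the count filter in a vehicle library. At 20 to 100 CPM in vehicle 55 were higher and 107 lower past 2-fold, and above 100 CPM 18 and 84. The median log2 fold change of all tested genes was 0.01, and every change given below without a scale is a log2 fold change. For the combination against vehicle the count of called genes was 2008 and 1431 without combination replicate 1 and 2, and 1747 and 1516 without vehicle replicate 1 and 2. It was 6152 and 6107 without venetoclax replicate 1 and 2, and 5740 with the 4 libraries alone.

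**Figure D1:**
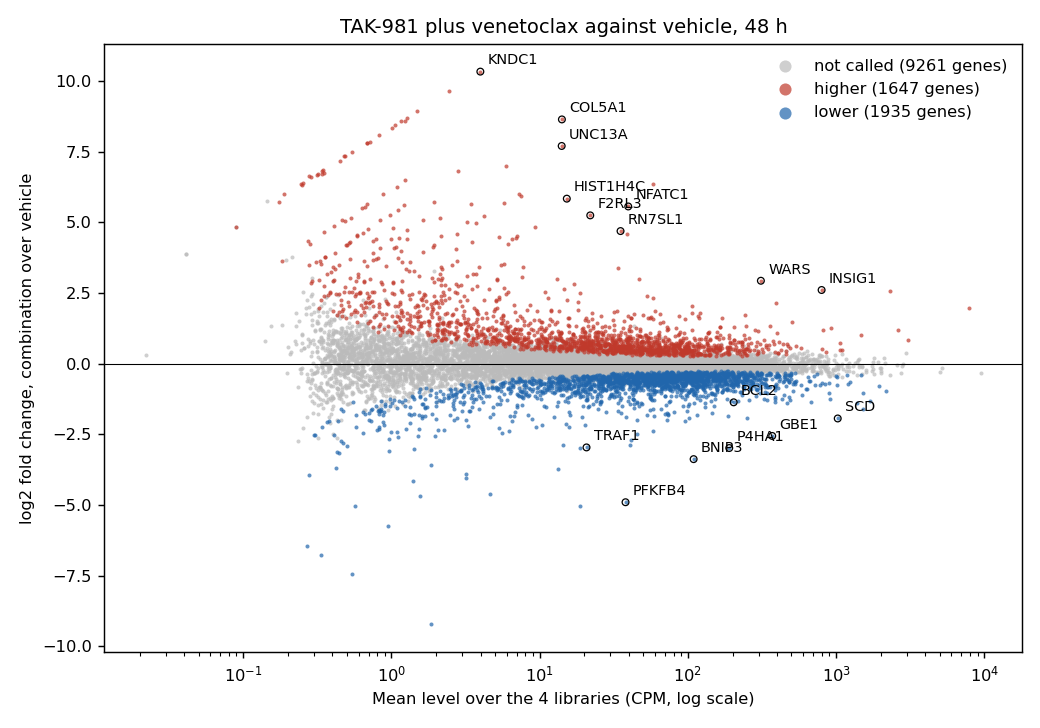
Each point is 1 of the 12843 tested genes. The x axis gives its mean level over the 4 libraries in CPM on a log scale, the y axis its log2 fold change, combination over vehicle. Red points are the 1647 higher genes, blue points the 1935 lower genes and grey points those not called, and the diagonal rows at the upper left are genes with 0 or few counts in vehicle.

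Highly expressed and long genes fell more often than they rose. Among the 2502 genes whose mean over the 4 libraries was above 100 CPM, 24.5% were lower and 8.83% higher, whereas among the 1754 genes of 1 to 5 CPM 7.81% were lower and 17.3% higher. Genes that span up to 5 kb of the genome were lower in 6.58% and higher in 17.0% of 1292 cases, and genes over 100 kb were lower in 21.5% and higher in 11.9% of 2424 cases. By chromosome, 19.8% of the 985 tested genes of chromosome 19 were higher and 4.57% lower, while on chromosome 13 the shares were 7.23% and 26.5% of 249 genes, and on chromosome 18 they were 8.24% and 27.1% of 170 genes. Genes below the count filter's level in at least 1 vehicle library passed it at least in part through other groups and can hardly be called lower. They were 94 of the 1754 genes of 1 to 5 CPM and 0 of those above 100 CPM. They were also 199 of the 1292 short and 153 of the 2424 long genes. On chromosomes 19, 13 and 18 they numbered 75, 17 and 5. Level, length and chromosome go together in the genome, and their separate parts and that of the filter in these shares were not tested.

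**Figure D2:**
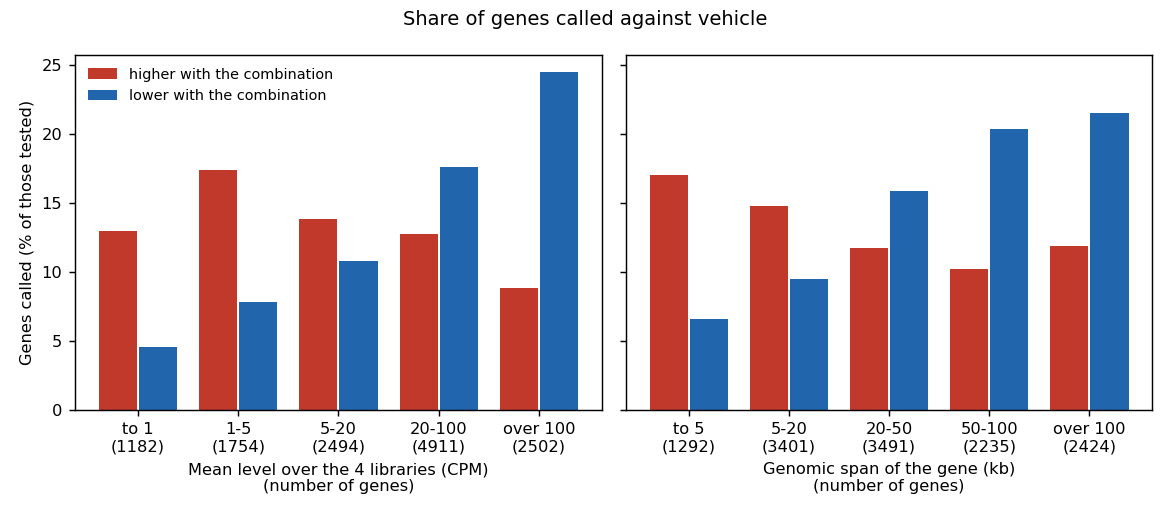
Bars give the percentage of tested genes that were higher (red) or lower (blue) with the combination than in vehicle. The left panel sorts genes by mean level over the 4 libraries in CPM, the right panel by genomic span in kb, with the number of genes under each class. The share of lower genes is 4.57% in the class of up to 1 CPM and 24.5% in the class over 100 CPM. Below the count filter's level in a vehicle library were 715 of the 1182 genes of up to 1 CPM and 0 over 100 CPM.

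The largest rises started from near silence. COL5A1, which encodes a type V collagen chain (hg38 chromosome 9, 134641774 to 134844843), had 28.1 and 28.3 CPM in the combination libraries and 0.0434 and 0.0854 CPM in the vehicle libraries. These are 1003 counts against 3, a ratio of 436 with an exact 95% counting interval of 149 to 2119. UNC13A, which primes synaptic vesicles for release (chromosome 19, 17601328 to 17688365), had 32.2 and 23.8 CPM with the combination and 0.130 and 0.128 CPM in vehicle (log2 fold change 7.70). Both COL5A1 and UNC13A were below the count filter's level in vehicle and entered the test through groups where they were high. That they were called is therefore no separate support for their rise. NFATC1, a transcription factor switched on by calcineurin (chromosome 18, 79395856 to 79529325), stood at 72.7 and 82.4 CPM against 1.87 and 1.41 CPM in vehicle (log2 fold change 5.56, SE 0.180, adjusted p = 1.67e-06). All 3 were picked from genes whose groups did not overlap. The same genes stood high with TAK-981 alone, at 8.06, 7.08 and 5.86 over vehicle on the log2 scale, and the difference between the combination and TAK-981 passed the test in none of the 3 (adjusted p = 0.0823, 0.23 and 0.199). A myosin heavy chain gene, MYH15, rose by 5.67, the C-type lectin receptor CLEC4E by 3.51 and the butyrophilin BTN1A1 by 3.50 on the log2 scale. With TAK-981 alone these genes stood at 5.35, 3.51 and 3.57 over vehicle. None of them was called between the combination and TAK-981 (adjusted p = 0.529, 0.999 and 0.836).

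Some genes had no read at all in vehicle. With 0 counts in both vehicle libraries and at least 10 in each combination library there were 15 genes with ordinary gene symbols, and 17 in all. KNDC1, a guanine nucleotide exchange factor gene, had 149 and 125 counts in the combination libraries, at least 119-fold higher, with vehicle set at 3 counts in all as the upper limit of a count of 0. LMTK3, a membrane kinase, was at least 78.7-fold higher, MROH2A at least 47.8-fold, the glycosyltransferase B4GALNT4 at least 36.5-fold and GAS6, the ligand of the AXL and MERTK receptors, at least 26.5-fold. TCN1, a vitamin B12 carrier of neutrophil granules, had 52 and 25 counts and was at least 33.5-fold higher. Of these 10 genes it was the one called between the combination and TAK-981, whose libraries had 3 and 1 counts. TCN1 passed the count filter through the combination, where it was high, so that call is no separate support. CRIP2, a LIM-domain protein, GCNT3, a mucin-type glycosyltransferase, SCNN1G, a subunit of the epithelial sodium channel, and TDRG1 made up the rest of the 10 with the most counts, with lower bounds of 30.0-fold, 21.7-fold, 20.9-fold and 37.8-fold. In the other direction, 3 genes had 0 counts with the combination and at least 10 in each vehicle library. They were STC2, the noncoding LINC01679 and SEMA5A, the last 2 named after their values were seen.

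**Figure D3:**
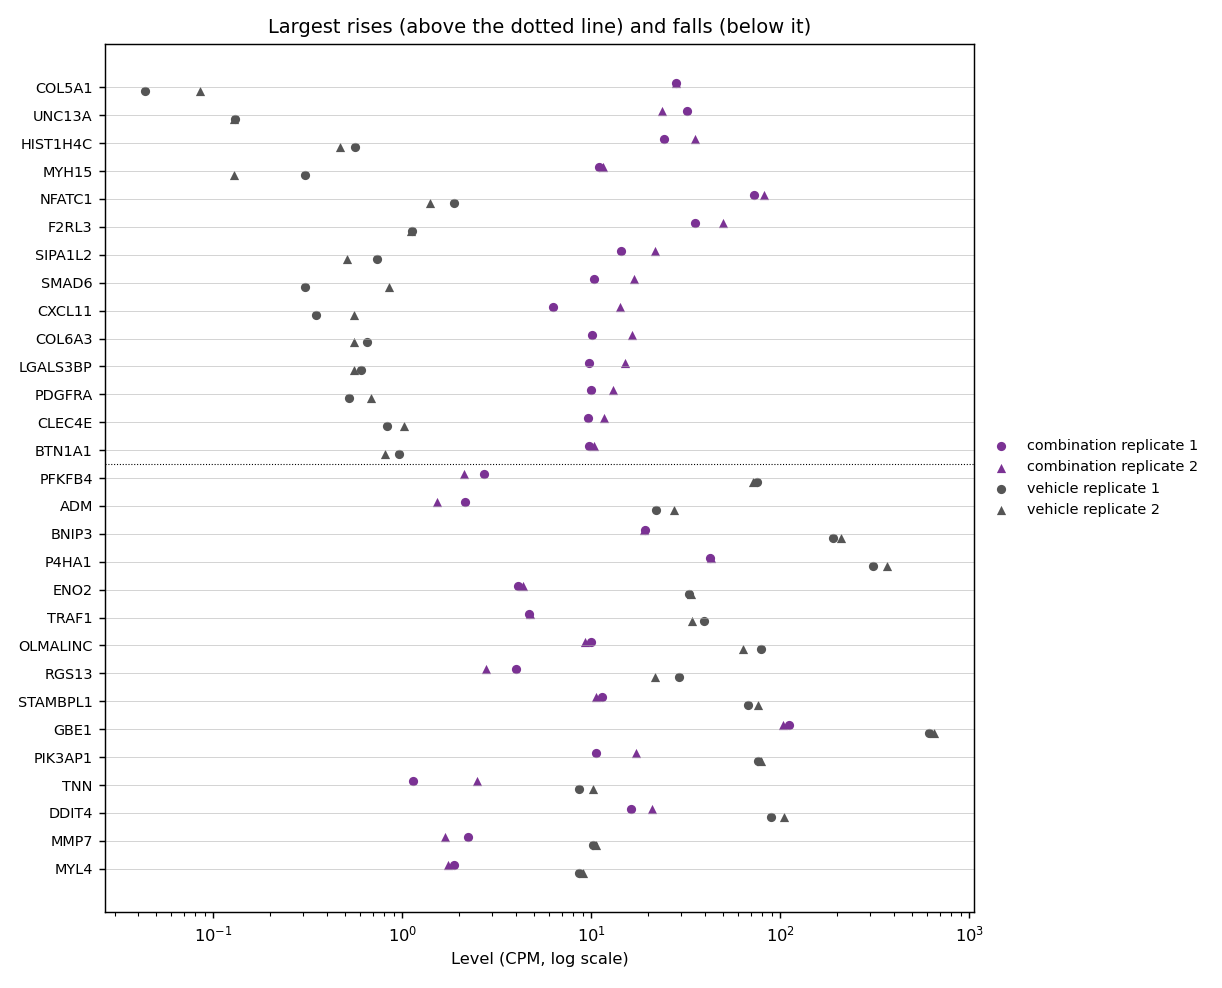
Level of each gene in the 4 libraries in CPM on a log scale, for 14 of the largest rises (above the dotted line) and the 15 largest falls (below it) among genes of at least 5 CPM on average. Purple symbols are the combination libraries and grey symbols the vehicle libraries, circles replicate 1 and triangles replicate 2. Only genes whose groups did not overlap were eligible, so the separation seen was set by that choice.

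Genes of glycolysis and of the hypoxia response gave 6 of the 15 largest falls, PFKFB4, ADM, BNIP3, P4HA1, ENO2 and DDIT4. When oxygen is present, prolyl hydroxylases mark the HIF alpha subunits for destruction. HIF that escapes binds the core sequence ACGTG in its targets, among them glucose transport, glycolytic enzymes, mitophagy and angiogenesis genes. Of 25 glycolysis and glucose transport genes 19 were lower and 1 was higher, with a median of -1.25, and of 27 tested members of the 30 other hypoxia-inducible genes 22 were lower and 1 was higher, with a median of -1.52. Over all tested genes 15.1% were lower and the median was 0.01. The rises were those of PFKFB2 (0.89) and EFNA1 (1.39), named after their values were seen. EFNA1 was not called without any 1 of the combination, vehicle and TAK-981 libraries, nor was PFKFB2 except without combination replicate 1.

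PFKFB4, which sets the level of the glycolytic activator fructose 2,6-bisphosphate (chromosome 3, 48517684 to 48562015), had 2.70 and 2.11 CPM with the combination and 75 and 72 CPM in vehicle (log2 fold change -4.90, SE 0.568, adjusted p = 0.000498). Its relative PFKFB3 had 31.8 and 33 CPM with the combination and 112 and 118 CPM in vehicle (log2 fold change -1.83, SE 0.105, adjusted p = 3.09e-05). The neuronal-type enolase ENO2 had 4.12 and 4.37 CPM against 32.8 and 33.6 CPM in vehicle (log2 fold change -2.97, SE 0.177, adjusted p = 3.09e-05). The glucose transporter SLC2A1 fell by 1.81 and the phosphofructokinase PFKP by 1.36. The 2 replicates of each group nearly coincided in these genes. Summed over the 25 glycolysis genes the level was 5999 and 6009 CPM with the combination and 12743 and 14014 CPM in vehicle.

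BNIP3, a mitophagy receptor (chromosome 10, 131966455 to 131982013), had 19.3 and 19 CPM with the combination and 189 and 209.8 CPM in vehicle (log2 fold change -3.38, SE 0.449, adjusted p = 0.000925). P4HA1, which hydroxylates collagen prolines, had 42.3 and 42.8 CPM against 309 and 366 CPM in vehicle (log2 fold change -2.99, SE 0.345, adjusted p = 0.00049). The vasodilator peptide gene ADM fell to 2.15 and 1.53 CPM, against 22 and 27.6 CPM in vehicle, and the stress-induced mTORC1 inhibitor DDIT4 to 16.3 and 21 CPM, against 89.5 and 104 CPM. DDIT4 was not called without combination replicate 1. VEGFA, the angiogenic growth factor, had 4.89 and 6.19 CPM with the combination and 25.1 and 27.1 CPM in vehicle (log2 fold change -2.25, SE 0.293, adjusted p = 0.000843). STC2, a secreted glycoprotein, had 0 counts in both combination libraries and 171 counts in the 2 vehicle libraries, at least 43.7-fold lower. The oxygen sensor EGLN1 fell by 1.52, the adenylate kinase AK4 by 1.76. Among 11 tested HIF factors and their regulators, the ubiquitin ligase SIAH2 alone was called at -0.48, not without combination replicate 2 or vehicle replicate 2, and HIF1A stood at -0.28 (adjusted p = 0.259). The count of lower genes in that list was 4 without venetoclax replicate 1 and 4 without venetoclax replicate 2.

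The core ACGTG was looked for on both strands in RefSeq promoters of GRCh38.p14, from 250 bases before to 50 after the start. It was found in 15 of 23 promoters of the other hypoxia-inducible genes (65.2%) and 9 of 22 promoters of glycolysis genes (40.9%), against 21.6% of all 27305 promoters and 27.1% of those of tested genes. Among all genes called lower the share was 26.9%, and among those called higher 23.5%. Shown are the promoters of the 2 members with the largest falls that hold it, read along the gene's strand with the core in capitals on either strand, at chr11:568408-568707 on the minus strand for the noncoding MIR210HG, whose transcript is the host of a hypoxia-induced microRNA, and at chr10:131981874-131982173 on the minus strand for BNIP3.
MIR210HG: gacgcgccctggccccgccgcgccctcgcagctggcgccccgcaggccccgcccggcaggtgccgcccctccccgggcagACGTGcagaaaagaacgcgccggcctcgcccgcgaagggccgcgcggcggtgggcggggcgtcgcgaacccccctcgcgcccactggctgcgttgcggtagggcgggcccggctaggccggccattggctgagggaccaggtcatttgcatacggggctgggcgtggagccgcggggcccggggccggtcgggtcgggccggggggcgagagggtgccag
BNIP3: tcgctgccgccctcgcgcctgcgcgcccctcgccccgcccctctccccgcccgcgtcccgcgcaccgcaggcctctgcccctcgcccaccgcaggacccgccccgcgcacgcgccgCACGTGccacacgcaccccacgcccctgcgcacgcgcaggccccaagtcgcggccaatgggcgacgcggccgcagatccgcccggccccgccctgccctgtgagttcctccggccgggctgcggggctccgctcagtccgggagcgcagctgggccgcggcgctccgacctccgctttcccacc
In BNIP3 the 6 bases CACGTG are a palindrome and count as 1 match on each strand. MIR210HG changed by -4.61 and BNIP3 by -3.38.

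The hypoxia genes lay below TAK-981 as well as below vehicle. The combination and each drug alone share the fit, and each comparison's own values are given side by side. How the list counts against a single drug, here and below, hold with a library left out was not tested. The number of all genes called against TAK-981 moved strongly with the library left out. Against TAK-981, where 8.8% of all genes were called, 2.76% higher and 6.03% lower, 18 of 25 glycolysis genes and 20 of 27 other hypoxia genes were lower and none was higher. Against venetoclax, where 39.6% of all genes were called, 17.6% higher and 22% lower, 11 glycolysis genes were lower and 3 higher, and 8 other hypoxia genes were lower and 6 higher. Some members went below their level with either drug: BNIP3 stood at 0.50 with TAK-981 and -1.90 with venetoclax against vehicle, and the combination differed from them by -3.88 (adjusted p = 0.00276) and -1.48 (adjusted p = 0.025). ENO2 differed from TAK-981 by -2.26 (adjusted p = 0.000885) and from venetoclax by -0.18 (adjusted p = 0.48). PFKFB4 differed from venetoclax by -1.25 (adjusted p = 0.14), a difference the libraries did not resolve.

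Genes of the sterol pathway fell while INSIG1, a brake on it, rose. SREBP2, the product of SREBF2, travels from the endoplasmic reticulum to the Golgi when sterols are scarce, is cut there and activates the genes of cholesterol synthesis. INSIG1 and INSIG2 hold it back. Of 23 tested members of the 25 genes of cholesterol synthesis and LDL uptake, 20 were lower and none was higher, with a median of -0.91. Over all tested genes 15.1% were lower and 12.8% higher. Their summed level was 2650.4 and 2381 CPM with the combination and 5379 and 5219.8 CPM in vehicle. STARD4, which carries cholesterol between membranes, had 35.4 and 30.4 CPM with the combination and 116 and 112 CPM in vehicle (log2 fold change -1.79, SE 0.120, adjusted p = 4.02e-05). MSMO1, a sterol C4 demethylase, had 35.3 and 29.9 CPM against 103 and 96.5 CPM in vehicle (log2 fold change -1.61, SE 0.121, adjusted p = 6.09e-05). FDFT1, the first enzyme committed to sterols, fell by 1.17. Against TAK-981 11 members were lower and none higher, and against venetoclax 15 were lower and 1 higher. Of all genes 6.03% were lower and 2.76% higher against TAK-981, and 22% lower and 17.6% higher against venetoclax.

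INSIG1 had 1202 and 1541 CPM with the combination and 237 and 214 CPM in vehicle (log2 fold change 2.604, SE 0.164, adjusted p = 3.38e-05). The value was 3.48 for TAK-981 alone and -0.70 for venetoclax alone, and the combination differed from TAK-981 by -0.88 (adjusted p = 0.0119) and from venetoclax by 3.31 (adjusted p = 1.26e-05). Of the other regulators INSIG2 changed by -1.48, SREBF2 by -0.89, SREBF1, the gene of the fatty acid relative, by -0.92, the cholesterol exporter ABCA1 by -0.86, the protease MBTPS2 by -0.39 and the esterifying enzyme SOAT1 by -0.33, all 6 called. Among those not called were SCAP, the escort of SREBP, at 0.06, MBTPS1 at 0.01, the ubiquitin ligase RNF139 at 0.06, the LXR genes NR1H2 at 0.45 and NR1H3 at -0.10, MYLIP at 0.28, ABCG1 at 0.08, and the lysosomal exporters NPC1 at 0.20 and NPC2 at 0.42. Without combination replicate 2 the count of lower regulators was 3 and SREBF1 was not called, and MBTPS2 and SOAT1 were not called without any 1 of the combination, vehicle and TAK-981 libraries.

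Fatty acid desaturation went the same way. SCD, which makes oleate from stearate, had 458 and 389 CPM with the combination and 1692 and 1563 CPM in vehicle (log2 fold change -1.94, SE 0.133, adjusted p = 4.2e-05). It differed from TAK-981 by -1.06 (adjusted p = 0.00308) and from venetoclax by -1.58 (adjusted p = 0.000132). The desaturases FADS2 and FADS1 fell by 1.35 and 1.11, and the acyl-CoA ligase ACSL3 by 0.92. Among all tested genes 15.1% were lower and 12.8% higher. Of 17 tested members of the list of 20, 9 were lower, 5 without combination replicate 2, and 1 was higher, ACSS2 (2.14), which makes acetyl-CoA from acetate and was named after its value was seen. It had 3.20 and 3.93 CPM with the combination and 0.521 and 1.07 CPM in vehicle.

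The sterol element TCACNCCAC was in 0 of 17 promoters of the tested cholesterol genes and in 1.15% of all promoters, so rare that its absence from 17 says nothing about these genes. The CCAAT box, to which the SREBP partner NF-Y binds, was in 13 of 17 (76.5%), against 35.7% of all promoters and 37.1% of those of tested genes. Shown are the 2 members with the largest falls that hold CCAAT, in capitals on either strand, at chr5:111512486-111512785 on the minus strand for STARD4 and at chr4:165327419-165327718 on the plus strand for MSMO1.
STARD4: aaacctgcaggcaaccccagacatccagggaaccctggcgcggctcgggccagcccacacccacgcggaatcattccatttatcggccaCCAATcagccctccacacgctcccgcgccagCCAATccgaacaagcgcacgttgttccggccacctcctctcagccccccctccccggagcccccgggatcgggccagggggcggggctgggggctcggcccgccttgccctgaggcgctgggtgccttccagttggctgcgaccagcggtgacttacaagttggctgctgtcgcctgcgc
MSMO1: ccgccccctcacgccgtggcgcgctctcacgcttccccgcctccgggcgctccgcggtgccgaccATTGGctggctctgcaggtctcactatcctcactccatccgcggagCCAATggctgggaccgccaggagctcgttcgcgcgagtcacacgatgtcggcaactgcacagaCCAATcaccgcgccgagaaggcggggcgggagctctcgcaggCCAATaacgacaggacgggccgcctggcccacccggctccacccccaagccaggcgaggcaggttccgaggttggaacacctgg
STARD4 holds 2 matches and MSMO1 holds 4.

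Genes that went beyond both single drugs were listed by size. F2RL3, the thrombin receptor PAR4, had 35.6 and 49.96 CPM with the combination, 9.11 and 8.02 CPM with TAK-981, 1.22 and 1.13 CPM with venetoclax and 1.13 and 1.11 CPM in vehicle. The combination was above TAK-981 by 2.31 (SE 0.190, adjusted p = 0.000885) and above venetoclax by 5.19 (SE 0.241, adjusted p = 6.45e-06). SIPA1L2, a Rap GTPase-activating protein, had 14.4 and 21.7 CPM with the combination, 2.32 and 2.73 CPM with TAK-981, 1.52 and 1.68 CPM with venetoclax and 0.738 and 0.512 CPM in vehicle. SMAD6, an inhibitor of BMP signalling, was above TAK-981 by 2.58 and above venetoclax by 4.27. The chemokine CXCL11 had 6.31 and 14.2 CPM with the combination and 0.347 and 0.555 CPM in vehicle, with the higher value in replicate 2. The collagen VI chain COL6A3 and the galectin-binding glycoprotein LGALS3BP rose over vehicle by 4.43 and 4.39. LGALS3BP was above TAK-981 by 2.40, COL6A3 by 1.11 (adjusted p = 0.0351). The receptor kinase PDGFRA had 10.01 and 13.1 CPM with the combination and 0.521 and 0.683 CPM in vehicle (log2 fold change 4.24, SE 0.355, adjusted p = 0.000112).

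Among the falls, GBE1, the glycogen branching enzyme, had 111 and 104 CPM with the combination, 362 and 385 CPM with TAK-981, 339 and 190.3 CPM with venetoclax and 612 and 655 CPM in vehicle, so both drugs alone lay between the combination and vehicle. STAMBPL1, a deubiquitinase, had 11.3 and 10.6 CPM with the combination, 22.8 and 27.1 CPM with TAK-981, 41 and 32.6 CPM with venetoclax and 67.1 and 76.1 CPM in vehicle. The noncoding OLMALINC fell by 2.88 against vehicle and the mitochondrial carrier gene SLC25A52 by 2.19. Not all large falls went beyond the single drugs. TRAF1, an adaptor of TNF receptors, had 4.66 and 4.73 CPM with the combination and 39.4 and 34 CPM in vehicle (log2 fold change -2.97, SE 0.256, adjusted p = 0.000136) and differed from venetoclax by 0.07 (adjusted p = 0.864). RGS13, a regulator of G protein signalling, fell by 2.88. PIK3AP1, an adaptor of PI3 kinase, had 10.7 and 17.2 CPM with the combination and 76.1 and 78.7 CPM in vehicle and differed from TAK-981 by -0.34 (adjusted p = 0.316). The metalloproteinase MMP7 fell by 2.38 and the myosin light chain MYL4 by 2.27, and the tenascin TNN had a log2 fold change of -2.44.

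**Figure D4:**
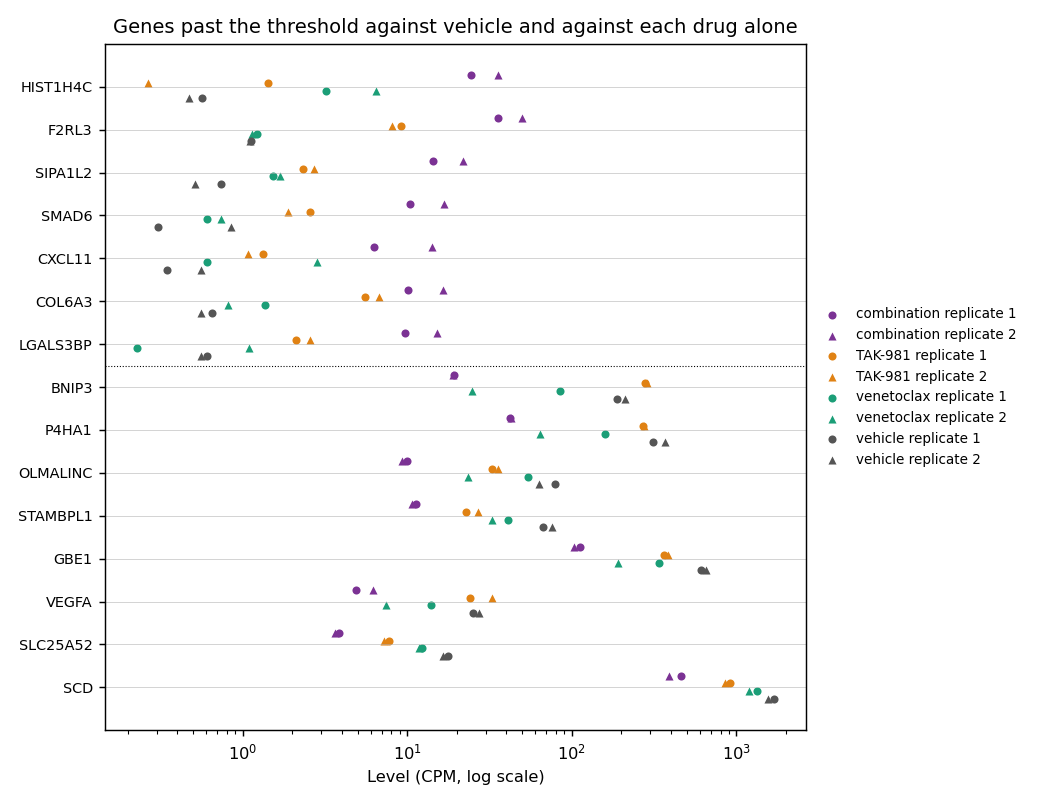
Level in all 8 libraries in CPM on a log scale for genes that differed from vehicle, from TAK-981 and from venetoclax in the same direction, 7 higher (above the dotted line) and 8 lower. From top to bottom within a gene the colours are combination (purple), TAK-981 (orange), venetoclax (green) and vehicle (grey), circles replicate 1 and triangles replicate 2; GBE1 lies at 111 and 104 CPM with the combination and 612 and 655 CPM in vehicle.

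Mitotic genes fell modestly and widely. Progress through mitosis needs CDK1 with cyclin B, the spindle checkpoint and the kinesins, whose genes are silenced outside G2 and M phase by a complex that binds the cell cycle homology region TTTGAA. Against 15.1% lower and 12.8% higher over all genes, 35 of 54 mitosis genes were lower and none higher, with a median of -0.63. The count was 12 without combination replicate 2 and 16 and 18 without vehicle replicate 1 and 2, and in the lists that follow such counts are given in brackets where leaving out 1 library moved them over 1.5-fold. CDK1 (chromosome 10, 60778331 to 60794852) had 100.1 and 80.4 CPM with the combination and 213 and 217 CPM in vehicle (log2 fold change -1.25, SE 0.125, adjusted p = 0.000245). The checkpoint gene MAD2L1 had 74.5 and 62.3 CPM against 129 and 145 CPM in vehicle, a fall of 1.00 on the log2 scale. Its partner BUB3 fell by 0.78 and the kinase AURKA by 0.81. Combination replicate 2 lay below replicate 1 in CDK1 and MAD2L1, and the summed level of the 54 genes was 8154 and 6445 CPM with the combination and 11400.1 and 10977 CPM in vehicle. Against TAK-981 2 members were lower, where 6.03% of all genes were lower. Against venetoclax 52 members were lower, where 22% of all genes were lower. The median over the 54 genes was -0.59 for TAK-981 alone and 0.35 for venetoclax alone over vehicle.

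DNA replication genes moved less against vehicle, where 12.8% of all genes were higher and 15.1% lower. Of 45, 9 were lower and 2 higher (0 without combination replicate 2, 2 without either vehicle library and 25 without either venetoclax library), so 4.44% were higher and 20% lower. The clamp loader RFC3 fell by 0.55 and the helicase genes MCM3 and GINS1 by 0.48 and 0.45, none of the 3 called without combination replicate 2. RFC3 and GINS1 were also not called without vehicle replicate 2, nor MCM3 and GINS1 without vehicle replicate 1. POLE, the leading strand polymerase, had 412 and 328 CPM with the combination and 236 and 201 CPM in vehicle, a rise of 0.76, and CLSPN, a mediator of the checkpoint kinase CHEK1, was the other rise at 0.89, not called without combination replicate 2 or either vehicle library. Against TAK-981 18 of the 45 were higher and none lower, and against venetoclax 27 were lower and 1 higher. Of all genes 2.76% were higher and 6.03% lower against TAK-981, and 17.6% higher and 22% lower against venetoclax. The replication median was -0.26 for the combination, -0.62 for TAK-981 alone and 0.33 for venetoclax alone over vehicle. Of 39 DNA repair and checkpoint genes 16 were lower and none higher against vehicle (6 without combination replicate 2 and 8 without either vehicle library), among them RAD51AP1 (-0.91), BARD1 (-0.88) and FANCI (-0.74). Among 28 regulators of G1, 4 were higher and 8 lower (4 without either combination library and 3 and 4 without vehicle replicate 1 and 2). CDKN2A, the locus of the CDK4 and CDK6 inhibitor p16, had 5.30 and 12.9 CPM with the combination and 0.869 and 1.41 CPM in vehicle (log2 fold change 2.96, SE 0.451, adjusted p = 0.00181), with replicate 2 the higher. E2F5 fell by 1.12, RB1 by 0.67 and SKP2, which marks p27 for destruction, by 0.62. Nucleotide and one-carbon synthesis genes were lower in 9 of 24 cases and higher in none (5 without combination replicate 2 and 5 without vehicle replicate 2), with PRPS2 -0.78, PAICS -0.75 and PPAT -0.70.

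TTTGAA was in 34 of 47 promoters of the mitosis genes (72.3%), in 0 of 39 of the replication genes and in 15.4% of all promoters and 10.3% of those of tested genes. CCAAT was in 35 of 47 (74.5%). Among all genes called lower, 14.3% held TTTGAA, and among those called higher 8.81%. The 2 mitosis genes with the largest falls that hold both are shown with both motifs in capitals on either strand, at chr10:60778081-60778380 on the plus strand for CDK1 and chr1:200620702-200621001 on the minus strand for the kinesin KIF14, which fell by 1.14.
CDK1: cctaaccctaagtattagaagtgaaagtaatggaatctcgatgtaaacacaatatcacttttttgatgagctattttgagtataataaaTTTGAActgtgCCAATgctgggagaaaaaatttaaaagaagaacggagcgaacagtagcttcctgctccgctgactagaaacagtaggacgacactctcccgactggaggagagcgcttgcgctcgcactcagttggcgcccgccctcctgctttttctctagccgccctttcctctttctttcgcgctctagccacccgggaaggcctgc
KIF14: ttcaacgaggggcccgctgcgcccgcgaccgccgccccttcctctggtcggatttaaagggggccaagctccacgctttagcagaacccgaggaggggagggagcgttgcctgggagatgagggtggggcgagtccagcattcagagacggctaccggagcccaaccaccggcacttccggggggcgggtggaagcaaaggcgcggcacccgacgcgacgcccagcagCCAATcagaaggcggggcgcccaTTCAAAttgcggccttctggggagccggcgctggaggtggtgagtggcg
Each of the 2 windows holds 1 match of each motif.

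Histone mRNAs of the replication-dependent clusters went against the other cell cycle genes. These mRNAs end in a stem loop in place of a poly(A) tail and are made mainly in S phase. Of 59 listed genes 56 are in the table and 37 were tested, of which 29 were higher and none lower (16 without combination replicate 2 and 17 and 18 without vehicle replicate 1 and 2). The shares of all tested genes were 12.8% higher and 15.1% lower. Of the 37 genes 24 were below the count filter's level in at least 1 vehicle library, so this count is no measure of how general the rise was. Summed over the 56 genes the level was 138 and 209.5 CPM with the combination and 34 and 31.7 CPM in vehicle. HIST1H4C had 24.3 and 35.6 CPM with the combination, 1.42 and 0.267 CPM with TAK-981, 3.20 and 6.43 CPM with venetoclax and 0.565 and 0.470 CPM in vehicle (log2 fold change 5.84, SE 0.540, adjusted p = 0.000184 against vehicle). HIST1H1C, a linker histone, had 13.2 and 16.7 CPM against 3.65 and 4.61 CPM in vehicle (log2 fold change 1.85, SE 0.206, adjusted p = 0.00041). HIST1H2BK rose by 2.54 and HIST1H2AE by 4.57. Copies of a histone gene are so alike that reads may have been dropped or assigned to the wrong copy. Of the 15 genes of histone mRNA processing none was called, and 2 were called higher without venetoclax replicate 1 and 2 without venetoclax replicate 2. At an unadjusted p under 0.05 there were 2 lower and 0 higher, and DESeq2 and limma-voom called 0. Of 9 tested histone genes with poly(A) tails the sole call was H2AFZ, lower by 0.74, and that call was lost without any 1 of the combination and vehicle libraries or TAK-981 replicate 1, while 5 were lower without either venetoclax library.

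Some other RNAs without poly(A) tails rose with the histone mRNAs. RN7SK, which holds the elongation factor P-TEFb inactive, had 56.7 and 91.4 CPM with the combination and 2.91 and 3.29 CPM in vehicle (log2 fold change 4.57, SE 0.291, adjusted p = 3.52e-05). RN7SL1, the RNA of the signal recognition particle, had 41.2 and 94.1 CPM against 2.43 and 2.77 CPM in vehicle (log2 fold change 4.69, SE 0.446, adjusted p = 0.000209). The minor spliceosome RNAs RNU12 and RNU6ATAC rose by 6.99 and 4.10. Of 12 tested members of the list 11 were higher, 5 of the 12 being below the filter in a vehicle library, and of all 16 tested genes annotated as snRNA 15 were higher, 13 of the 16 being below it, so neither count measures how general the rise was. The shares of all genes were 12.8% higher and 15.1% lower. Genes annotated as snoRNA stayed near the share of rises, with 8 of 61 higher (13.1%) and 0 lower. Of these 61 genes 28 were below the filter in a vehicle library. Replicate 2 of the combination lay above replicate 1 in each RNA named here, and the summed level over the list was 168 and 325 CPM with the combination and 17.2 and 17.6 CPM in vehicle. The sources differ on the library method. Ribosomal depletion is named in the series text, whereas a SMART-Seq kit, a kind that generally primes on poly(A), is named in the protocols. How this and RNA handling bear on the histone and small RNA values was not tested.

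In the drug target family BCL2 itself fell. BCL2 had 109 and 119 CPM with the combination and 289 and 298 CPM in vehicle (log2 fold change -1.37, SE 0.0945, adjusted p = 4.2e-05). It lay at -0.93 with TAK-981 and -0.30 with venetoclax over vehicle, and the combination differed from them by -0.44 (adjusted p = 0.0231) and -1.07 (adjusted p = 0.00016). Of the other protective members MCL1 stood at 0.02, BCL2A1 at 0.10 and BCL2L2 at 0.35, none called. BCL2L1, which encodes BCL-XL, was called at 0.52 (adjusted p = 0.0491) and lost the call without any 1 of the combination, vehicle and TAK-981 libraries. Among the pro-apoptotic genes, BMF had 24.7 and 22.1 CPM with the combination and 8.34 and 6.91 CPM in vehicle (log2 fold change 1.62, SE 0.205, adjusted p = 0.000746). PMAIP1, which encodes the MCL1 antagonist NOXA, fell to 13.3 and 14.3 CPM, against 32.9 and 41.3 CPM in vehicle (log2 fold change -1.43, SE 0.143, adjusted p = 0.000244). Both went beyond the single drugs: BMF differed by 1.22 from TAK-981 and 2.42 from venetoclax, PMAIP1 by -1.34 and -1.61. The effectors BAX (0.52) and BAK1 (0.51) and the BH3-only genes BCL2L11 (0.15), BBC3 (-1.27), BID (-0.09) and BAD (0.32) were not called, nor were BCL2L13 (-0.03) and BCL2L15 (-1.30). Over all tested genes 12.8% were higher and 15.1% lower. Of the 10 pro-apoptotic genes tested 1 was higher and 1 lower, and 3 were higher without either venetoclax library.

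Further along the death pathways 4 of 31 genes were higher (12.9%) and 6 lower (19.4%), near the 12.8% and 15.1% of all genes. BIRC3, an inhibitor of apoptosis, had 44.4 and 50.2 CPM with the combination and 146 and 154 CPM in vehicle (log2 fold change -1.66, SE 0.120, adjusted p = 5.32e-05), and its relative BIRC2 fell by 0.57. MLKL, the executioner of necroptosis, rose by 0.77. TP53INP1, an autophagy and stress protein, had 18.9 and 27.8 CPM with the combination and 2.95 and 2.86 CPM in vehicle, and ZMAT3, an RNA-binding protein, fell by 1.01. CDKN1A, the CDK inhibitor p21, stood at -0.48, not called.

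Of 18 genes of SUMO conjugation 3 were higher (16.7%) and 2 lower (11.1%), near the 12.8% and 15.1% of all genes. TRIM28, a SUMO ligase and the corepressor of zinc finger proteins (chromosome 19, 58544091 to 58550722), had 648 and 638 CPM with the combination and 151 and 138 CPM in vehicle (log2 fold change 2.15, SE 0.266, adjusted p = 0.000679), and 2.54 with TAK-981 alone. SUMO3 rose by 0.57 and RANBP2 by 0.54. RANBP2 was not called without any 1 of the combination and vehicle libraries or TAK-981 replicate 2. UBA2, the catalytic subunit of the enzyme that TAK-981 inhibits, fell to 363 and 337 CPM, against 519 and 555 CPM in vehicle (log2 fold change -0.61, SE 0.109, adjusted p = 0.00359). PIAS2, a ligase, fell by 0.27, called neither by DESeq2 nor without any 1 of the combination, vehicle and TAK-981 libraries. SAE1, the partner subunit of UBA2, stood at -0.05, SUMO2 at -0.12 and SUMO4 at -0.17, none called. The ligases PIAS1 (-0.15), PIAS3 (0.21), PIAS4 (0.48), NSMCE2 (-0.13), ZMIZ1 (-0.01), ZMIZ2 (0.33) and MUL1 (0.38) were not called. Without venetoclax replicate 1 and 2 the higher genes numbered 7 and 6. Among 17 genes of SUMO proteases, nuclear bodies and SUMO-targeted ligases, DESI2 alone was called, at -0.44, and lost the call without any 1 of the combination and vehicle libraries, while 2 were lower without either venetoclax library. Of 27 SUMO-dependent repressor genes 4 were higher and 4 lower, 14.8% each way and near the shares of all genes (2 without either combination library, 2 without either vehicle library and 7 without venetoclax replicate 1). TRIM28 is among the rises of this list and of the SUMO conjugation list. MPHOSPH8, of the HUSH silencing complex, rose by 0.85, and CBX5, which encodes heterochromatin protein 1 alpha, fell by 0.60, not called without combination replicate 2. Of 232 tested zinc finger genes of chromosome 19, which recruit TRIM28 to repeats, 30 were higher (12.9%, against 12.8% of all genes and 19.8% of chromosome 19) and 12 lower, with ZNF844 at 1.10 and ZNF442 at 1.82. The count of higher ones was 13, 5, 5 and 8 without combination replicate 1 and 2 and vehicle replicate 1 and 2, and 56 and 54 without venetoclax replicate 1 and 2.

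Lists of protein quality control had 31.03% to 48.4% of their members higher, against 12.8% of all genes, and most members of each were not called higher. In the list of endoplasmic reticulum chaperones and the unfolded protein response 9 of 24 genes were higher and none lower (5 without combination replicate 2). HSPA5, the master chaperone BiP, had 668 and 805 CPM with the combination and 254 and 279 CPM in vehicle (log2 fold change 1.47, SE 0.144, adjusted p = 0.000229), and CALR had 1900.3 and 2046 CPM against 935 and 1018 CPM. CREB3L2, a membrane-bound transcription factor of the secretory pathway, rose by 1.70 and HYOU1 by 0.77. Of 29 tested heat shock and chaperonin genes 9 were higher and 2 lower (4 without combination replicate 2 and 4 without vehicle replicate 1), with HSPB1 1.91, HSPA1B 1.08, HSPH1 0.99 and AHSA1 0.56. Of 31 proteasome subunits 15 were higher and none lower (6 and 3 without combination replicate 1 and 2, 4 and 6 without vehicle replicate 1 and 2 and 24 without either venetoclax library), with PSMC4 0.76 and PSMD1 0.73. Lysosome and autophagy genes were higher in 14 of 32 cases and lower in 2 (8 without combination replicate 2 and 8 and 9 without vehicle replicate 1 and 2). Among them CTSA, a protective cathepsin, rose by 1.14 and LAMP1 by 0.93, and ATG12 fell by 0.67. Both CTSA and LAMP1 lay above both single drugs, CTSA by 0.89 over TAK-981 and 0.73 over venetoclax.

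Amino acid stress genes split. Among tested targets of ATF4 15.4% were higher and 34.6% lower, against 12.8% and 15.1% of all genes. Of 26 tested targets of ATF4 4 were higher and 9 lower (4 without combination replicate 1 and 5 without vehicle replicate 2). ATF5 had 35.9 and 42.8 CPM with the combination and 12.2 and 12.2 CPM in vehicle (log2 fold change 1.69, SE 0.138, adjusted p = 9.76e-05), and PPP1R15A, which restores translation after stress, rose by 1.12. SLC7A11, the cystine importer that feeds glutathione and restrains ferroptosis, fell to 44.5 and 42.9 CPM, against 91.7 and 100.99 CPM in vehicle (log2 fold change -1.14, SE 0.136, adjusted p = 0.000588). The serine synthesis enzyme PSAT1 fell by 1.16. SLC7A11 stood at 0.06 with TAK-981 and -0.05 with venetoclax over vehicle, and the combination differed from them by -1.20 (adjusted p = 0.00239) and -1.09 (adjusted p = 0.000689). Of 23 tested NRF2 and ferroptosis genes 7 were higher and 2 lower (3 and 1 without combination replicate 1 and 2 and 1 and 2 without vehicle replicate 1 and 2), with PRDX1 at 1.17, GPX4 at 0.61 and the pentose phosphate enzyme TKT at -0.78. GPX4 lost the call without any 1 of the combination and vehicle libraries. Of 20 tRNA synthetases 2 were higher and 1 lower (1 without either combination library, 1 without either vehicle library, 1 without TAK-981 replicate 2 and 4 without either venetoclax library). WARS, the tryptophan enzyme that interferon also induces, had 407 and 692 CPM with the combination and 73.2 and 70.9 CPM in vehicle (log2 fold change 2.93, SE 0.250, adjusted p = 0.000128), and 0.72 with TAK-981 and 0.67 with venetoclax over vehicle. The combination was above them by 2.21 (adjusted p = 0.00205) and 2.26 (adjusted p = 0.000397). RARS rose by 0.36, not called without 1 of several libraries, and DARS fell by 0.73.

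Many interferon-stimulated genes rose, 44% of those listed against 12.8% of all genes. Interferon receptors act through STAT and IRF factors, whose targets restrict viruses and load peptides on MHC class I. Of 50 genes 22 were higher and 1 lower, with a median of 0.68 (7 without combination replicate 2, 9 without either vehicle library and 38 and 36 without venetoclax replicate 1 and 2). GBP1, a guanylate binding protein, had 134 and 228 CPM against 57.8 and 59.5 CPM in vehicle (log2 fold change 1.62, SE 0.210, adjusted p = 0.000841), and IFITM3, which blocks virus entry, 66.7 and 86.8 CPM against 21.8 and 25.2 CPM (log2 fold change 1.70, SE 0.170, adjusted p = 0.000244). PARP9 rose by 1.00. The fall was that of CMPK2 (-0.82), named after its value was seen. In GBP1, WARS and CXCL11 combination replicate 2 lay above replicate 1, as in the small RNAs, and the summed level of the 50 genes was 6960.1 and 9578 CPM with the combination and 3394 and 3562 CPM in vehicle. What the replicates' difference in small RNAs has to do with it was not tested. Against TAK-981 5 of the 50 were higher and none lower, and against venetoclax 13 were higher and 3 lower. Of all genes 2.76% were higher and 6.03% lower against TAK-981, and 17.6% higher and 22% lower against venetoclax. Of 19 tested genes of MHC class I presentation 7 were higher and none lower (3 without combination replicate 2, 2 and 4 without vehicle replicate 1 and 2 and 12 without either venetoclax library). HLA-B had 436 and 589 CPM with the combination and 187 and 216 CPM in vehicle (log2 fold change 1.35, SE 0.155, adjusted p = 0.000489). HLA-E rose by 0.71, not called without vehicle replicate 1, and TAPBP, which loads peptides, by 0.43, not called without combination replicate 2 or either vehicle library. HLA genes are similar in sequence and their reads could be shared. Of 11 MHC class II genes HLA-DMA alone had enough counts to be tested, at 0.03, not called.

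Of 18 tested NF-kB subunits and targets 5 were lower (27.8%) and none higher, against 15.1% lower and 12.8% higher over all genes. Among the falls were TRAF1 and BIRC3 above, TNFAIP3, a feedback inhibitor, at -0.78 and the cytokine IL1B at -0.70. Of 26 tested immediate early genes 3 were higher (11.5%) and 5 lower (19.2%), near the shares of all genes (3 without either combination library and 3 without vehicle replicate 1), with JUND 0.59, FOSL2 -0.66, KLF6 -0.71 and the growth factor antagonist SPRY2 -0.99. MYC stood at -0.39 (adjusted p = 0.0792), not called. Of 21 tested genes of FGFR1 signalling and its feedback 8 were lower and none higher (1 and 4 without combination replicate 1 and 2, 3 and 1 without vehicle replicate 1 and 2 and 5 without either TAK-981 library), with SPRED1 at -0.72 and STAT5B at -0.52. Neither was called without combination replicate 1 or vehicle replicate 2, nor STAT5B without combination replicate 2. FGFR1 stood at -0.13, not called.

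Several genes of mature blood lineages rose from low levels. CD34 did not pass the test, at 0.35 (adjusted p = 0.0814). Of 11 tested members of the 24 myeloid genes 5 were higher and 1 lower, and 3 of the 11 were below the filter in a vehicle library. Across all tested genes 12.8% were higher and 15.1% lower. MRC1, the macrophage mannose receptor, had 7.86 and 10.4 CPM with the combination and 1.17 and 1.11 CPM in vehicle (log2 fold change 2.98, SE 0.264, adjusted p = 0.000144). FCER1G, the shared chain of Fc receptors, had 3.43 and 4.15 CPM against 0.347 and 0.726 CPM, FCGR2A 7.18 and 9.54 CPM against 1.65 and 1.84 CPM and the integrin ITGAM 8.32 and 7.72 CPM against 2.95 and 2.95 CPM. Of the 24 genes 6 had no count in the 4 libraries, among them ELANE and PRTN3 of neutrophil granules, and the summed level was 66.8 and 78.3 CPM with the combination and 48.6 and 51.9 CPM in vehicle. MRC1 and ITGAM differed from TAK-981 by -0.91 (adjusted p = 0.0305) and -0.81 (adjusted p = 0.0218).

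Of 10 tested mast cell and basophil genes 5 were higher and 1 lower, and 2 of the 10 were below the filter in a vehicle library. CPA3, a mast cell protease, had 163 and 178 CPM with the combination and 36.4 and 46 CPM in vehicle (log2 fold change 2.05, SE 0.137, adjusted p = 4.02e-05). The tryptase genes TPSAB1 and TPSB2, near-identical in sequence, had 40 and 48 counts with the combination and 2 counts each in vehicle, ratios of 26.1 (95% counting interval 6.77 to 223) and 31.3 (8.21 to 266). GATA2 rose by 0.67. Of 12 tested megakaryocyte and platelet genes, 3 of them below the filter in a vehicle library, 7 were higher and none lower (4 without combination replicate 2). Among all genes 12.8% were higher and 15.1% lower. The 7 include F2RL3 above, its relative F2R, the thrombin receptor PAR1, at 95 and 93.9 CPM against 25.5 and 26 CPM in vehicle, the adhesion receptor SELP at 15 and 22.8 CPM against 3.47 and 3.97 CPM and the transcription factor NFE2 at 1.29. SELP lay above TAK-981 by 1.76 and above venetoclax by 2.07. Of 7 tested endothelial genes 4 were higher and 2 lower (2 without combination replicate 2 and 2 without vehicle replicate 2). TEK, the angiopoietin receptor, had 5.49 and 7.94 CPM with the combination and 0.695 and 0.768 CPM in vehicle, and ENG rose by 1.01, while FLT1 and PECAM1 fell by 0.67 and 0.77. PECAM1 was not called without combination replicate 1 or vehicle replicate 1. No erythroid gene of the 3 tested was called with all 8 libraries by edgeR. DESeq2 called 0 and limma-voom 1 of the 3, and 1 had an unadjusted p under 0.05.

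Among 21 tested stem cell genes 5 were higher and 6 lower (3 without combination replicate 2 and 3 without vehicle replicate 2). The shares higher and lower were 23.8% and 28.6%, against 12.8% and 15.1% of all genes. BAALC, a marker of immature leukemia, had 84.9 and 78.5 CPM with the combination and 219 and 195 CPM in vehicle (log2 fold change -1.34, SE 0.100, adjusted p = 6.09e-05), and BMI1, a Polycomb gene of self-renewal, 127 and 99.8 CPM against 227 and 231 CPM. GFI1, a repressor needed for granulocyte development, had 84.5 and 82.6 CPM with the combination and 25 and 30.1 CPM in vehicle (log2 fold change 1.60, SE 0.170, adjusted p = 0.000341), above TAK-981 by 0.98 and above venetoclax by 1.85. RUNX3 rose by 0.85. Of 6 tested T and NK genes 3 were lower and 1 higher. CD3E had 5.62 and 6.41 CPM with the combination and 13.2 and 15.6 CPM in vehicle, CD28 0.549 and 0.583 CPM against 3.56 and 3.16 CPM and NCAM1 17.3 and 21.6 CPM against 45.2 and 42.3 CPM. Of 3 tested B cell genes 1 was higher and 1 lower. The lower was the surrogate light chain gene IGLL1, with 3.52 and 3.79 CPM against 8.51 and 12.4 CPM. The T-lineage transcription factor LEF1 of the Wnt pathway had 18.6 and 18.4 CPM with the combination and 71.9 and 73.5 CPM in vehicle (log2 fold change -1.98, SE 0.124, adjusted p = 3.38e-05). The T and NK gene NKG7 rose by 0.60 and the B cell gene CD79A by 1.99, and neither was called without 1 of several libraries.

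At the cell surface the integrin alpha L gene ITGAL had 549.9 and 541 CPM with the combination and 267 and 245 CPM in vehicle (log2 fold change 1.09, SE 0.0981, adjusted p = 0.000154), while its beta partner ITGB2 had 69.1 and 70.1 CPM against 143 and 152 CPM (log2 fold change -1.09, SE 0.135, adjusted p = 0.000696). ITGAL was above TAK-981 by 1.30 and above venetoclax by 0.79. For the lists that follow, the shares of all genes are 12.8% higher and 15.1% lower. Of 21 tested integrins and adhesion receptors 4 were higher and 7 lower (4 without combination replicate 1 and 4 without vehicle replicate 1). CD47, the signal against phagocytosis, fell to 201 and 202 CPM, against 365 and 387 CPM in vehicle (log2 fold change -0.90, SE 0.100, adjusted p = 0.000412). Of 15 tested matrix genes, of 29 listed, 7 were higher and 1 lower, with COL18A1 at 1.88 beside COL5A1 and COL6A3, and 4 of the 15 were below the filter in a vehicle library. Of 19 tested calcium and NFAT genes 2 were higher and 5 lower, with a median of -0.14. The count of falls shrank without any 1 of the combination, vehicle and TAK-981 libraries. The rises were NFATC1 and RCAN1, an NFAT target (0.92). Among the falls were the calcineurin subunit PPP3CA (-0.69) and the kinase CAMK2D (-0.81). Of the multidrug transporters ABCB1 fell by 0.60, not called without combination replicate 2 or vehicle replicate 2.

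Housekeeping pathways stayed near or below the shares of all genes. Of 53 respiratory chain genes 3 were higher and 1 lower with a median of 0.09, of 20 TCA cycle genes 1 was higher and 2 lower, of 74 cytosolic ribosomal protein genes 2 were lower, of 38 ribosome biogenesis genes 2 were higher and 1 lower, and of 44 splicing genes 4 were higher and 1 lower. IDH1 fell by 0.78. These counts moved with the libraries used. With 1 library left out, 0 to 11 respiratory chain genes were higher, 1 to 6 TCA cycle genes lower, 0 to 11 ribosomal protein genes lower, 0 to 10 ribosome biogenesis genes higher and 1 to 6 splicing genes higher. The highest of these values came without a venetoclax library and the lowest without a combination or vehicle library, and for all but the respiratory chain a TAK-981 library moved the count too. None of NDUFA12, OGDH, NOP2, PRPF19, SUCLA2 and SRSF10, called here at log2 values between -0.33 and 0.50, was called without any 1 of the combination, vehicle and TAK-981 libraries. In each list with a count of 0 by edgeR in a direction, 0 to 3 members had an unadjusted p under 0.05 in it. DESeq2 and limma-voom called 0 there too, except 1 higher repair gene by DESeq2 and 1 higher erythroid gene by limma-voom.

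**Figure D5:**
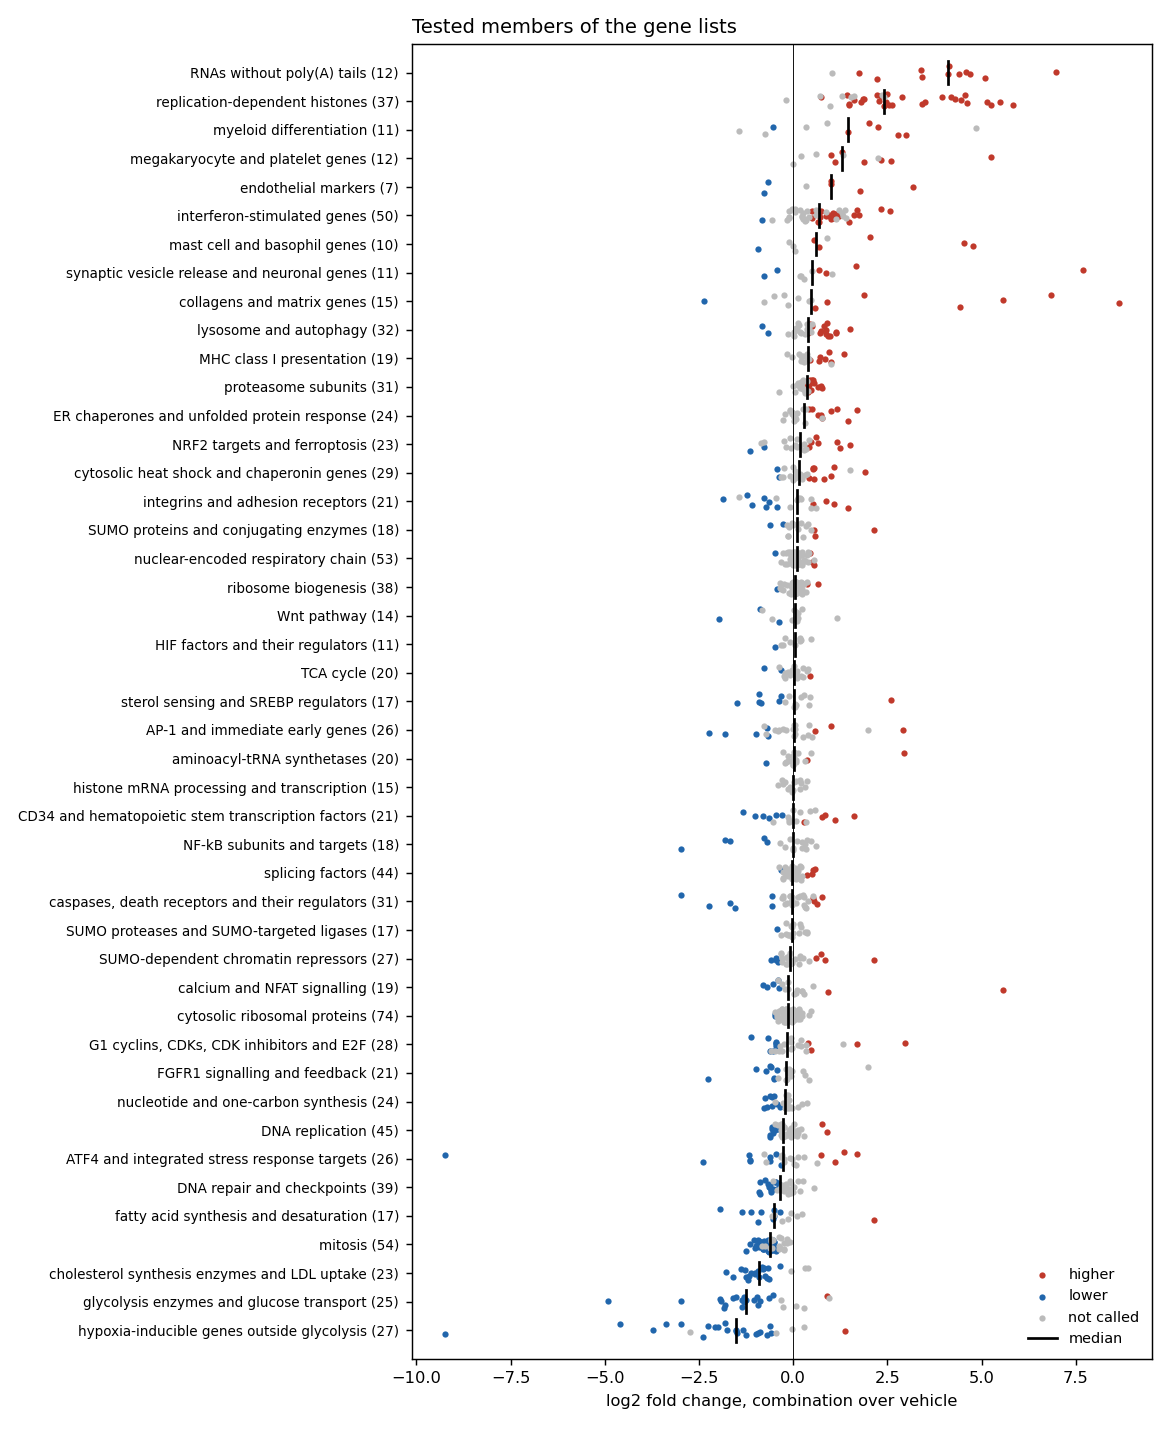
Each point is 1 tested member of a gene list, placed by its log2 fold change, combination over vehicle, on the x axis. Rows are lists sorted by their median (black line) with the number of tested members in brackets; red points are higher, blue lower and grey not called, and the lowest rows, hypoxia-inducible genes and glycolysis, have medians of -1.52 and -1.25.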

How the data were processed

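The files hold whole-number counts of reads for each gene, as the authors deposited them without normalization, together with hg38 coordinates and gene lengths in kb. RNA came from a miRNeasy kit. For the library step the series text says ribosomal depletion and the protocols say SMART-Seq, sequenced in single reads. Per the submitters' processing notes, the tools included Trimmomatic, STAR 2.6.0, HTSeq 0.11.1 and edgeR, with no role stated. Annotation release, strand setting and the handling of reads with several matches were not given in the sources used here, so near-identical, overlapping and antisense genes are uncertain.

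The main test was the quasi-likelihood F test of edgeR 4.0.16 (R 4.3.3) on counts scaled by TMM. Genes were filtered with filterByExpr by group, and all 8 libraries entered a single robust fit with two-sided contrasts. Its p-values were adjusted by Benjamini-Hochberg over 12843 genes and called at 0.05. The SE given is approximate, the size of the log2 fold change divided by the root of F. CPM rest on TMM-scaled library sizes. Libraries held 13204588 to 26304900 counts, which limits genes of few counts most. Intervals and limits of 3 counts cover counting error only. The procedure was tried on simulated data with known changes.

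Genes were named by rule. It took the 15 largest called rises and falls of at least 5 CPM whose groups did not overlap, the 8 largest each way that passed against both single drugs too, up to 10 genes without a vehicle count, up to 4 called genes of lowest p per list, and a set of drug targets and markers. Members of the BCL2, SUMO and SREBP lists could be given whatever their result. Outside that rule, after their values were seen, stand PFKFB2, EFNA1, ACSS2, CMPK2, CLSPN, HIF1A, KIF14, MIR210HG, STC2, HLA-DMA, SEMA5A, LINC01679 and the markers without counts. Members and lists were chosen with earlier results of these data known. Lists share some members, so the same call can count in several of them. Among these are TRIM28 (SUMO conjugation and repressors), CALR (endoplasmic reticulum chaperones and MHC class I), INSIG2 (hypoxia and sterol regulators) and SLC7A11 (ATF4 and NRF2). Values of a few genes that met the rule, and of a gene list, are not reported here. Alternatives were DESeq2 1.42.0 and its size factors, limma-voom (limma 3.58.1), other filters, a test against 1.5-fold, a replicate block, smaller fits and leaving out each library.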

Additional observations from a re-analysis of the deposited data

How the results depend on the processing

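The number of genes called for the combination against vehicle, 3582, was 743 in a test against 1.5-fold (56.5% higher, against 46.0%), 5740 with the 4 libraries alone and 6110 without both venetoclax libraries. Leaving out 1 library gave 1431 to 6152. For the combination against TAK-981, 1130 genes (31.4% higher), the number was 1875 with no filter, 98 against 1.5-fold (42.9% higher), 3746 with the 4 libraries alone and 3678 without both venetoclax libraries (45.8% higher in each), and 65 to 3696 with 1 library left out. The lowest value came without combination replicate 2, and the others were 238 (combination replicate 1 left out), 150 or 104 (a TAK-981 library), 533 or 529 (a vehicle library) and 3696 or 3641 (a venetoclax library). For the combination against venetoclax, 5086 genes (44.6% higher), it was 1002 against 1.5-fold (68.4% higher), 2497 with the 4 libraries alone and 2386 to 7204 with 1 library left out, 3008 and 2386 of these without combination replicate 1 and 2. DESeq2, limma-voom, DESeq2 size factors and a 1 CPM filter stayed within 1.5 times in all 3 comparisons.

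With the replicate number as a block the counts were 3798 for combination against vehicle, 1253 for combination against TAK-981 and 5306 for combination against venetoclax. Same-numbered libraries did not all deviate together. Over 9858 genes the correlation of their deviations was 0.375 for combination and vehicle, 0.165 for combination and TAK-981, 0.155 for combination and venetoclax, 0.343 for TAK-981 and venetoclax, 0.0199 for vehicle and TAK-981 and -0.041 for vehicle and venetoclax. As 2 of the 6 lay below 0.1, the numbers were not taken to pair the libraries.

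Of 228 named genes called against vehicle, none changed direction in that comparison under any of these settings. Values of single genes against TAK-981 or venetoclax were not followed through the settings. The test against 1.5-fold lost 94 of these calls and DESeq2 lost 3. Leaving out a combination library lost 35 or 47, a vehicle library 39 or 41, a TAK-981 library 17 or 18 and a venetoclax library 0. With 2 libraries a group, leaving 1 out leaves a lone library that is assumed to vary like the other groups. The smaller depth of combination replicate 2, 13204588 counts, limits genes of few counts.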
